A study of Homo sapiens with 5 samples.

Results

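The 37 genes described here encode proteins of the lysosome and of autophagy, and were taken from a list that names each gene. They are 37 of the 20098 protein-coding genes annotated on chromosomes 1 to 22 and X, and the remaining 20061 genes served as the comparison. The list holds 3 transcription factors, 6 lysosomal membrane proteins, channels and cholesterol carriers, 6 cathepsins, 6 glycosidases and related proteins, 7 subunits of the vacuolar ATPase, 6 proteins of autophagy initiation and conjugation, and 3 autophagosome adaptor and Atg8 proteins. For each gene, peaks of each factor were counted in promoter windows, which ran from 2 kb upstream to 2.5 kb downstream of any annotated transcription start site (TSS), and in the gene outside these windows, called the gene body.

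The peaks came from chromatin immunoprecipitation and sequencing (ChIP-Seq) of Fra-1, MYC and E2F1 in untreated LM2 cells, a lung-metastatic derivative of the human breast cancer line MDA-MB-231. Fra-1 is a subunit of the AP-1 transcription factor, MYC binds DNA as a dimer with MAX, and E2F1 is a regulator of cell cycle genes. The libraries were made to map the binding sites of the factors genome-wide. There was 1 library per factor and 1 input DNA library for all of them, so nothing below has a replicate check and no test was run.

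Lysosomes degrade proteins, lipids and sugars at low pH, and autophagy delivers cytoplasmic cargo to them in double-membraned vesicles. Many lysosomal genes are controlled by TFEB, TFE3 and MITF, basic helix-loop-helix leucine zipper factors that bind promoter elements named CLEAR elements. A CLEAR element is built around CACGTG, the E-box, which is also the preferred site of MYC and MAX. Therefore the E-boxes of these promoters, and the MYC peaks at them, are of interest together.

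Sequences of the E-boxes were read first, since they show what the promoters offer to a factor that recognizes CACGTG. All sequences are from GRCh37 (hg19), run 5′ to 3′ on the strand of the gene, and have the motif in capitals. The first set holds E-boxes near a TSS of MCOLN1, CTSF and BECN1 that lay under a MYC peak.

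MCOLN1, chr19:7587457-7587486: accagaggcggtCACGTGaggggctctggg
MCOLN1, chr19:7587484-7587513: gggctaccgggtCACGTGaccgaggcacag
CTSF, chr11:66336111-66336140: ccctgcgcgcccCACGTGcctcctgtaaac
BECN1, chr17:40985360-40985389: tgcgaggctgtgCACGTGcgctgcgcagcc

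In the second set, CACGTG is preceded by t and followed by a, which gives TCACGTGA, here called the CLEAR core. These CLEAR cores lay near a TSS but under no MYC peak, and they are shown because the same letters in MCOLN1 were under one.

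LAMP1, chr13:113951514-113951543: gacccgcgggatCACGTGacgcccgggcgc
LAMP1, chr13:113951541-113951570: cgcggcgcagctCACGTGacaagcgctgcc
CTSA, chr20:44519937-44519966: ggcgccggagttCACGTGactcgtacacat
GLA, chrX:100663156-100663185: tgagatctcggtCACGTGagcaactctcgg
GLA, chrX:100663189-100663218: taagcgagtaatCACGTGagcgcctacgtc
GAA, chr17:78075292-78075321: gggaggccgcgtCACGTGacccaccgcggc
GAA, chr17:78075337-78075366: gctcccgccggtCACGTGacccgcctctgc
ATP6V1A, chr3:113465533-113465562: aagttttaagatCACGTGattggcccaaac
ATP6V0D1, chr16:67515102-67515131: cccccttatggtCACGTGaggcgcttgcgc

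The E-box lay within 250 bp of a TSS in 23 of the 37 genes (62.2%) and in 27.2% of the other protein-coding genes. For the CLEAR core the counts were 10 of 37 (27%) against 2.72%. The list was set out as genes of which many have E-box-like promoter elements. An excess of E-boxes and CLEAR cores was therefore in part built into it and is no independent result. The listed genes have more annotated start sites (median 13 against 5), and so more sequence was searched in them. A motif of another family moved in the same direction: the AP-1 motif TGACTCA, which reads as TGAGTCA on the other strand, lay within 250 bp of a TSS in 16 genes (43.2%) against 22.5%. The E2F motifs TTTGGCGC, TTTCCCGC, TTTGCCGC and TTTCGCGC, or their reverse complements, were near a TSS in 6 genes (16.2%) against 11.6%. With 1 canonical TSS per gene, the E-box was found in 15 of the 37 genes (40.5%) against 10.9%, and the CLEAR core in 7 (18.9%) against 1.56%. Both strands were searched, and each CLEAR core contains an E-box. A match only says that the letters are present.

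The flanking bases of the E-boxes differed from those elsewhere, and the choice of the list enters this comparison too. Of the 44 E-boxes near a TSS of a listed gene, 14 (31.8%) were CLEAR cores, against 7.18% of the 7217 E-boxes near the other genes. LAMP1, GLA, GAA and MCOLN1 each held 2 of the 14, so these are not independent counts. The CLEAR core was found near a TSS of 4 of the 7 vacuolar ATPase genes, 3 of the 6 glycosidase and related genes, 2 of the 6 membrane protein genes and 1 of the 6 cathepsin genes. None of the 9 autophagy genes and none of the 3 transcription factor genes had one near a TSS. All 6 cathepsin genes had an E-box. In CTSL and CTSZ, however, it lay near an alternative start, 1297 bp downstream and 884 bp upstream of the canonical TSS.

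E2F1 peaks were the common feature of these promoters. A promoter peak of E2F1 was present in 36 of the 37 genes (97.3%), against 61.2% of the other protein-coding genes. Fra-1 had a promoter peak in 10 genes (27%) against 13.2%. MYC had one in 7 genes (18.9%), close to its share of 17.8% in the other genes. In GUSB, MCOLN1, MITF and SQSTM1 all 3 factors had a promoter peak, which makes 4 genes (10.8%) against 4.66%. Apart from these, 23 genes had E2F1 only, 6 had Fra-1 with E2F1 (ATG5, ATG7, CTSB, GABARAPL1, PSAP and TFEB), and 3 had MYC with E2F1 (BECN1, CTSF and HEXA). NEU1 had no promoter peak.

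**Figure D1:**
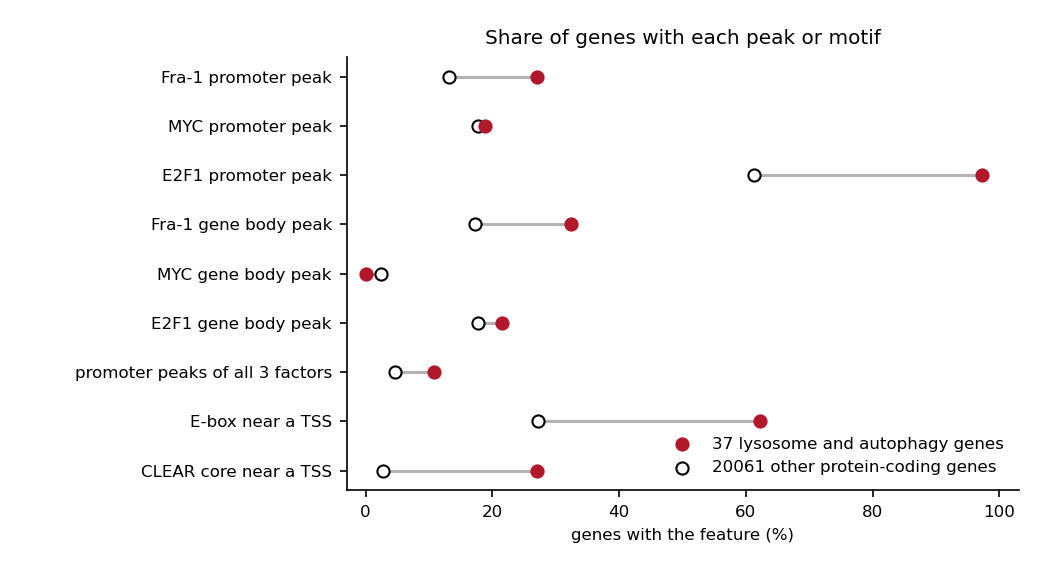
Percent of genes with a promoter peak, a gene body peak or a motif within 250 bp of a TSS, for the 37 lysosome and autophagy genes (filled points) and the 20061 other protein-coding genes (open points). The points of the MYC promoter peak nearly coincide at 18.9% and 17.8%, whereas those of the E2F1 promoter peak are at 97.3% and 61.2%.

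Some properties of the genes moved with these shares. The merged promoter windows had a median of 14.2 kb in the listed genes and 9.22 kb in the others, so each listed gene offered a larger target. The sequence within 250 bp of the canonical TSS was 69.5% G and C in the listed genes and 64.5% in the others, as medians. The part of these properties in the peak shares was not tested. With 1 canonical TSS per gene, which gives every gene a window of the same width, E2F1 had a peak in 36 of 37 (97.3%) against 57.3%, Fra-1 in 6 (16.2%) against 7.21%, and MYC in 6 (16.2%) against 15.9%. Whether the genes are transcribed in LM2 cells was not analysed here.

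NEU1, the lysosomal sialidase, lies in a stretch of chromosome 6 from which all peaks were missing. No peak of any factor lay between chr6:28411450 and chr6:33538873 (5.13 Mb), and the nearest summit was 1708425 bp from the gene. The 184 protein-coding genes within it therefore had 0 promoter peaks, which follows from the choice of a stretch without peaks. For scale, E2F1 had a promoter peak in 65.7% of the other 864 genes of chromosome 6. The stretch holds the major histocompatibility complex, for which hg19 also provides alternative haplotype sequences. On 6 of these sequences the E2F1 list had 18 peaks, and the MYC list had 1. According to the methods, only uniquely mapping reads were kept, and the part of this step was not tested. The missing peaks at NEU1, which has an E-box 37 bp upstream of a TSS, therefore cannot be read as missing binding. Outside this stretch, E2F1 had a promoter peak in 36 of 36 listed genes, against 61.8% of the others.

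The numbers of peaks differed greatly between the factors, since the E2F1 list held 36933 peaks, the Fra-1 list 17320 and the MYC list 4867. After removal of repeated positions, the input kept 10758036 tags, the Fra-1 library 12931227, the E2F1 library 18056168 and the MYC library 23853621. The strength of a peak is given as fold enrichment, the deposited ratio computed from the fragment pileup at the summit and the local background from the input. In the full lists its median ran from 6.67 (MYC) over 8.24 (Fra-1) to 8.88 (E2F1), and values are only roughly comparable between factors.

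Although more of the listed promoters had an E2F1 peak, their peaks were not stronger. The strongest E2F1 promoter peak of a gene had a median fold enrichment of 21.9 over the 36 listed genes, with a range from 5.91 in MITF to 69.2 in SQSTM1, against 22 over the other genes with a peak. For Fra-1 the medians were 8.15 and 8.38, and for MYC 6.99 and 7.22. The strongest promoter peaks lay close to a start site. The median distance from summit to nearest TSS was 41.5 bp for E2F1 against 91 bp in the other genes, 136 bp against 524 bp for Fra-1, and 72 bp against 126 bp for MYC. The share within 500 bp was 94.4% against 86.6% for E2F1 and 70% against 49.2% for Fra-1. For MYC it went the other way, with 5 of 7 genes (71.4%) against 81.9%. Distances shorten where starts are more numerous, and the part of the number of starts was not tested.

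**Figure D2:**
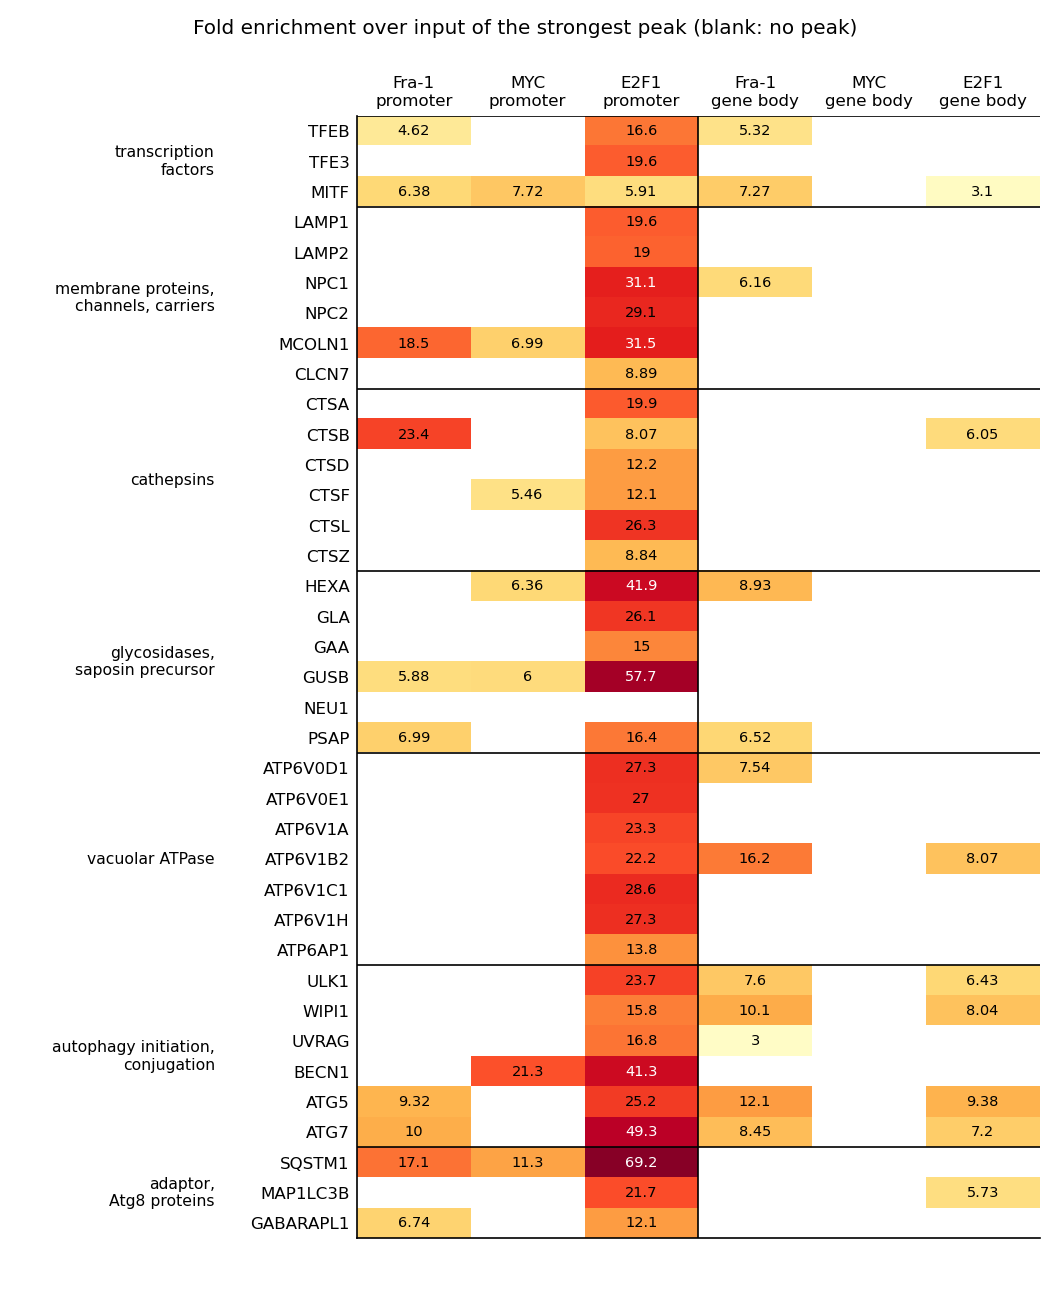
Fold enrichment over input of the strongest promoter and gene body peak of each factor in the 37 genes, arranged by role (darker colour, larger value on a log2 colour scale; blank, no peak). The E2F1 promoter column is filled for every gene but NEU1, and the MYC gene body column is empty.

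Among the transcription factors, MITF had promoter peaks of all 3 factors, TFEB of Fra-1 and E2F1, and TFE3 of E2F1 only. For MITF, which is best known from melanocytes, the strongest E2F1 promoter peak (5.91) was the lowest such value of the listed genes. Its MYC peak (fold enrichment 7.72) lay 149 bp upstream of the canonical TSS and overlapped an E2F1 peak of 5.89. The Fra-1 promoter peaks (6.38 and 6.02) were near alternative starts, with summits 22682 and 127718 bp downstream of the canonical TSS. The 3 factors were thus counted at MITF through different starts, and the MYC peak overlapped no Fra-1 peak. No E-box lay within 250 bp of a MITF start.

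At TFEB, the chief regulator of lysosome biogenesis, the strongest peak was that of E2F1 (16.6) 96 bp upstream of the canonical TSS. A Fra-1 peak (4.62) and an E2F1 peak (6.06) overlapped in the first intron at an alternative start, with the Fra-1 summit 11958 bp downstream of the canonical TSS. This was the lowest value among the strongest Fra-1 promoter peaks of the listed genes. TFE3 had 4 E2F1 promoter peaks, of which the strongest (19.6) had its summit 27 bp downstream of the canonical TSS in the 5′ UTR.

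All 6 genes for lysosomal membrane proteins, channels and cholesterol carriers had an E2F1 promoter peak, and only MCOLN1 among them had peaks of Fra-1 and MYC. LAMP1 and LAMP2 encode the major glycoproteins of the lysosomal membrane, and their strongest E2F1 peaks were 19.6 and 19.0. The LAMP1 promoter was the richest in E-boxes, with 6 in the 192 bp before the TSS, 2 of them CLEAR cores. All 6 lay under the E2F1 peak and none under a MYC peak. NPC1 and NPC2, which pass cholesterol out of the lysosome, had E2F1 peaks of 31.1 and 29.1, and CLCN7, a chloride-proton exchanger, one of 8.89.

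MCOLN1 encodes the calcium channel of the lysosomal membrane, and at its canonical TSS all 3 factors overlapped. The Fra-1 peak had a fold enrichment of 18.5 (pileup 25), the E2F1 peak of 31.5 (pileup 44) and the MYC peak of 6.33 (pileup 7). Computed on this scaled pileup of 7, a 95% Poisson interval runs from 2.81 to 14.4. MYC pileups were scaled down by a factor of 0.451, so this is not the interval of the sequenced fragments. It takes in no error other than counting. The 2 CLEAR cores of MCOLN1 printed above were under all of these peaks, and the MYC summit fell on the second, 12 bp upstream of the TSS. No AP-1 motif lay within 50 bp of the Fra-1 summit. A second group of Fra-1 (8.18), MYC (6.99) and E2F1 (29.0) peaks was counted for MCOLN1 through an alternative start. It lies about 13 kb downstream of the canonical TSS, past the end of the canonical transcript, and in promoter windows of the neighbouring gene PNPLA6.

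The cathepsins are the proteases of the lysosome. E2F1 had a promoter peak in all 6 of their genes, with strongest values from 8.07 in CTSB to 26.3 in CTSL. CTSB, a cysteine protease, had the strongest Fra-1 promoter peak of the listed genes (23.4, rank 458 of all Fra-1 peaks). It lay in the first intron, 13964 bp downstream of the canonical TSS and 304 bp upstream of an alternative one, with 2 AP-1 motifs within 50 bp of its summit. The E-box 50 bp upstream of the canonical CTSB start was under no peak. CTSF, another cysteine protease, was the cathepsin gene with a MYC peak (5.46, pileup 9), the weakest among the strongest MYC peaks of the list, and its summit was 6 bp from an E-box. In CTSA, which encodes a carboxypeptidase that forms a complex with NEU1, the summit of the E2F1 peak (19.9) was 4 bp from the CLEAR core.

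Of the 6 genes for glycosidases and the saposin precursor, 5 had an E2F1 promoter peak, and the exception was NEU1. GUSB, which encodes β-glucuronidase, had a strong E2F1 peak (57.7, rank 223 of all E2F1 peaks) 45 bp upstream of the canonical TSS. Peaks of Fra-1 (5.88) and MYC (6.0), each with a pileup of 7, overlapped it. Thus at GUSB the 3 factors met within 56 bp of the TSS, but 2 of the 3 peaks had scaled pileups of only 7. HEXA, which encodes a subunit of β-hexosaminidase, had an E2F1 peak of 41.9 and a MYC peak of 6.36 (pileup 11) in its promoter windows.

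GLA and GAA encode the enzymes that are deficient in Fabry and Pompe disease, and each had 2 CLEAR cores and no MYC peak. Those of GLA were under an E2F1 peak (26.1). Those of GAA fell between 2 E2F1 peaks (7.86 and 15.0), on either side of the TSS. PSAP, the precursor of the saposins that activate lipid hydrolases, had Fra-1 peaks of 6.99 in the first intron and 4.62 at the TSS beside an E2F1 peak of 16.4.

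**Figure D3:**
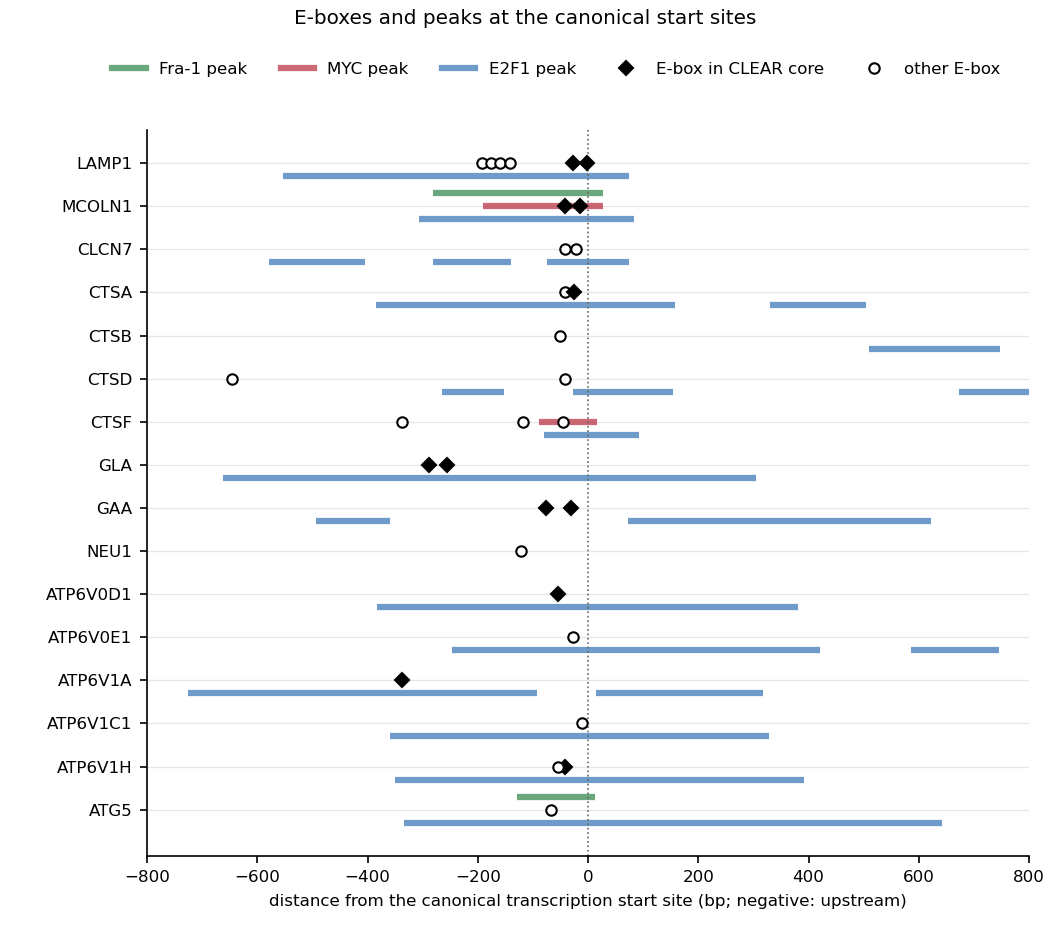
E-boxes within 250 bp of any TSS (diamonds, in a CLEAR core; circles, other) and peaks of Fra-1, MYC and E2F1 (bars from start to end) by distance in bp from the canonical TSS, for genes with an E-box in the plotted range, except 1 that is not shown. MYC bars cover E-boxes in CTSF and MCOLN1, whereas the 6 E-boxes of LAMP1 lie under an E2F1 bar alone.

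The vacuolar ATPase pumps protons into the lysosome. All 7 of its listed genes had an E2F1 promoter peak, and none had a promoter peak of Fra-1 or MYC. The strongest E2F1 peaks ranged from 13.8 in ATP6AP1 to 28.6 in ATP6V1C1, and between these values lay ATP6V1B2 (22.2), ATP6V1A (23.3), ATP6V0E1 (27), ATP6V0D1 (27.3) and ATP6V1H (27.3). E-boxes near a TSS were found in 5 of the 7 genes. In ATP6V0D1 and ATP6V1A the CLEAR core printed above was under an E2F1 peak. At ATP6V1B2, Fra-1 had its strongest gene body peak of the list (16.2), which overlapped an E2F1 peak (8.07), contained an AP-1 motif and lay 25183 bp downstream of the canonical TSS, past the end of the canonical transcript.

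SQSTM1 encodes the cargo receptor that links ubiquitinated proteins to the autophagosome, and it had the most promoter peaks of the listed genes. E2F1 had 10 of them. The strongest (69.2, pileup 99) ranked 45 of all 36933 E2F1 peaks and had its summit in the first coding exon, 61 bp downstream of the canonical TSS. A further 5 E2F1 peaks, from 6.84 to 12.2, were counted through a distant upstream start and lay in promoter windows of the neighbouring gene MGAT4B. The peaks of Fra-1 (17.1 and 6.74) and MYC (11.3, 6.44 and 6.14) were upstream of the canonical TSS but inside the longer annotated gene. The Fra-1 summits were 1803 and 1308 bp upstream and lay in E2F1 peaks of 22.8 and 10.3. Each Fra-1 peak also overlapped a MYC peak (6.14 and 11.3), and the third MYC peak overlapped the strongest E2F1 peak. Sequences at the Fra-1 summits are shown because motifs of 2 families lay close together there. The first AP-1 motif was 10 bp from a Fra-1 summit and 2 bp from a MYC summit, and the E-box and the second AP-1 motif were 35 and 7 bp from the other Fra-1 summit.

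SQSTM1 AP-1 motif, chr5:179246098-179246126: tcatgggacgcTGACTCActgccggccag
SQSTM1 E-box, chr5:179246548-179246577: ctcggcgggggcCACGTGgctctcaggcgc
SQSTM1 AP-1 motif, chr5:179246576-179246604: gcctgggctgcTGAGTCAcgcttggccag

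MAP1LC3B and GABARAPL1 encode ubiquitin-like proteins that are coupled to lipids of the autophagosome. GABARAPL1 had a Fra-1 peak (6.74) with its summit 97 bp upstream of a start and 10 bp from an AP-1 motif, within an E2F1 peak of 12.1. MAP1LC3B had E2F1 promoter peaks only, the strongest of 21.7, and these lay in promoter windows that it shares with FBXO31.

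GABARAPL1 AP-1 motif, chr12:10364956-10364984: cttcagattccTGAGTCAcgctctgttta
ATG7 AP-1 motif, chr3:11320713-11320741: tgatgtggagcTGAGTCAgcttcctccct
PSAP AP-1 motif, chr10:73608817-73608845: cttgttgacgtTGAGTCActcctcacaag

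These 3 sequences are those of the remaining promoter peaks of Fra-1 with an AP-1 motif within 50 bp of the summit, other than that of CTSB. In all, 6 of 14 Fra-1 promoter peaks of the listed genes (42.9%) had the motif, against 49.6% of those of other genes.

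In the group of autophagy initiation, nucleation and conjugation, all 6 genes had an E2F1 promoter peak. ULK1, the kinase at the start of the pathway, had its E2F1 peak (23.7) 1850 bp downstream of the TSS, the farthest of the listed genes. WIPI1, which binds the lipid made by the nucleation complex, had E2F1 peaks of 15.8 and 9.14, and UVRAG, a partner of Beclin, one of 16.8. ATG7, the activating enzyme of both conjugation systems, had an E2F1 peak of 49.3 (pileup 104) 16 bp upstream of the canonical TSS and a Fra-1 peak of 10.0 in the first intron. At ATG5, which is joined to ATG12 in the first of these systems, a Fra-1 peak (9.32) overlapped the E2F1 peak (25.2) and covered an E-box.

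BECN1, the gene of Beclin, had the strongest MYC promoter peak of the list (21.3, rank 21 of all 4867 MYC peaks). Its scaled pileup was 36, with a 95% Poisson interval of 25.2 to 49.8 computed on that scaled value. The peak lay 9048 bp upstream of the canonical TSS, at an alternative start of BECN1, in a promoter window of the neighbouring gene PSME3. The E-box printed above was 26 bp from its summit, and an E2F1 peak (37.1) overlapped it. At the canonical BECN1 TSS itself, E2F1 had a peak of 41.3 and MYC had none. With 1 canonical TSS per gene, BECN1 thus had no MYC peak.

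**Figure D4:**
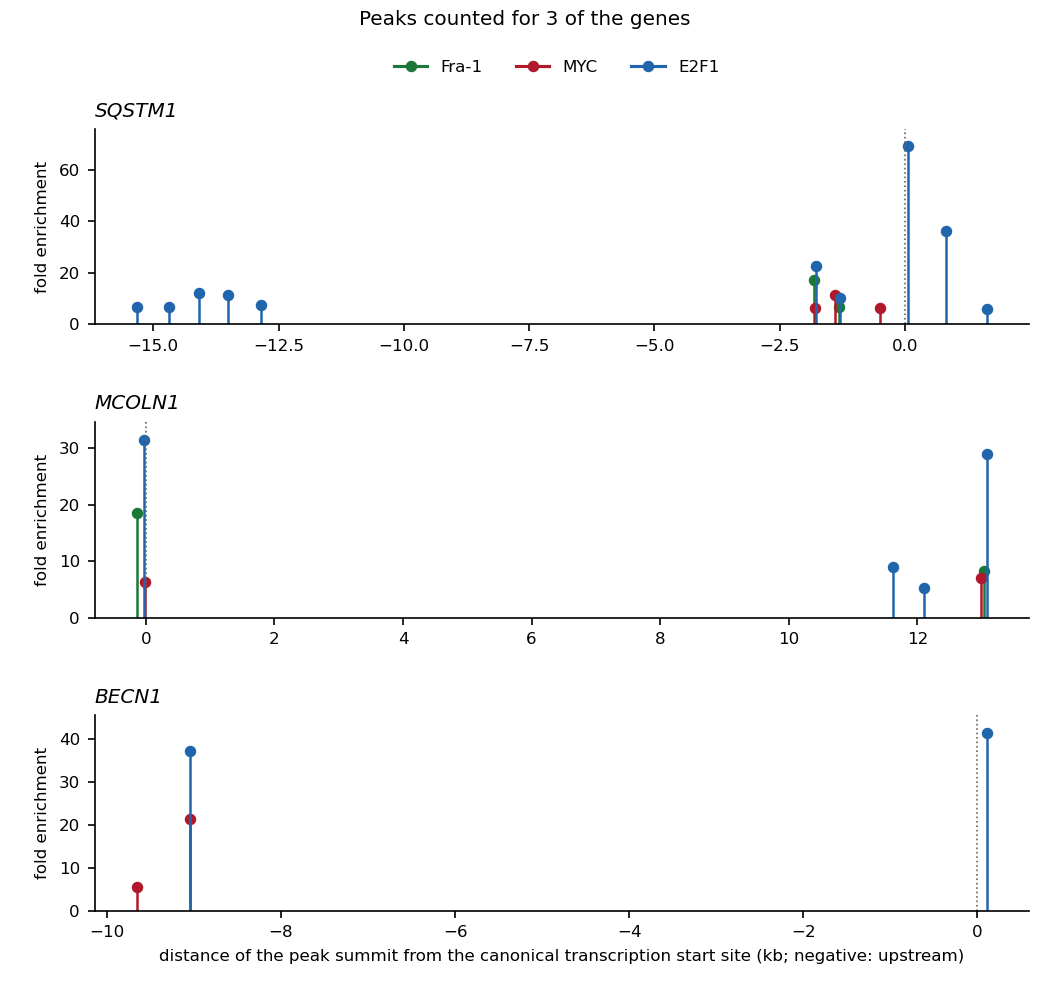
Fold enrichment over input of every peak counted for SQSTM1, MCOLN1 and BECN1, by the distance of its summit in kb from the canonical TSS (dotted line). The MYC peak of 21.3 at BECN1 is 9048 bp upstream of the canonical TSS, and at MCOLN1 the peaks form one group at the TSS and another about 13 kb downstream.

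The E-boxes and the MYC peaks of these promoters coincided in few genes. Of the 44 E-boxes near a TSS of the listed genes, 6 (13.6%) were under a MYC peak, against 9.41% near other genes, and 25 (56.8%) were under an E2F1 peak, against 25.6%. Among the 14 CLEAR cores, 3 were under a MYC peak (21.4% against 7.14%) and 11 under an E2F1 peak (78.6% against 51.2%). E-boxes of the same promoter can lie under the same peak, so these are not independent counts. The E2F1 shares also follow in part from its promoter peaks in 97.3% of the listed genes, against 61.2% of the others. E2F1 had a promoter peak in 22 of the 23 listed genes with an E-box (95.7%) and in 14 of the 14 without one. In the other genes these shares were 72.2% and 57.1%. Of the 3 CLEAR cores under a MYC peak, 2 were those of MCOLN1, under the same peak. Of the 23 listed genes with an E-box near a TSS, 4 had a MYC promoter peak (17.4%), whereas among the other protein-coding genes with an E-box 28.7% had one. Of the 14 listed genes without an E-box, 3 had a MYC promoter peak (21.4%), against 13.8%. At the summits, 4 of 11 MYC promoter peaks of the listed genes had an E-box within 50 bp (36.4%), against 16.2% of those of other genes. Among these 4 were the 2 MYC peaks of BECN1, which lay in promoter windows of PSME3. Because the list was set out by E-box-like promoter elements, the excess of E-boxes at MYC summits was in part built in.

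At E2F1 promoter summits E-boxes were more frequent in the listed genes, and the E2F motif was rare in listed and other genes alike. Of the 81 E2F1 promoter peaks of the listed genes, 8 had an E-box within 50 bp of the summit (9.88%), against 2.91% of those of other genes. The list was set out as genes of which many have E-box-like promoter elements. This excess was therefore in part built in and is no independent result about E2F1. The E2F motif was found at 0 of 81, which allows a share of up to 3.7% (3 counts), and at 2.2% of those of other genes, so a difference was not detectable. All 11 MYC promoter peaks overlapped an E2F1 peak, against 97.7% elsewhere. With Fra-1, 5 of the 11 MYC peaks overlapped (45.5%), against 13.9%, and these belonged to GUSB, MCOLN1 and SQSTM1.

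Outside the promoter windows, Fra-1 had peaks in the gene body of 12 of the 37 genes (32.4%), against 17.3% of the other protein-coding genes. E2F1 had gene body peaks in 8 (21.6%) against 17.8%. MYC had them in 0 of 37, which allows a share of up to 8.11% (3 counts), against 2.45%. The listed gene bodies were not longer, with a median of 14.5 kb against 17.4 kb. Per 100 kb of gene body there were 1.12 Fra-1 peaks in the listed genes and 0.631 in the others, and 0.929 against 0.695 E2F1 peaks.

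In the autophagy initiation group, 5 of 6 genes had a Fra-1 gene body peak (ATG5, ATG7, ULK1, UVRAG and WIPI1). UVRAG, ATG7 and ATG5 are also the longest genes of the list, at 329, 285 and 280 kb. Per 100 kb of gene body, the group had 1.19 Fra-1 peaks and the other listed genes 1.04. The UVRAG peak (3.0) ranked 17293 of the 17320 Fra-1 peaks, and with all lists limited to 4867 peaks ATG7 alone of this group kept a Fra-1 gene body peak. ATG7 had 3 such peaks, the strongest of 8.45 in intron 3. The 4 of ATG5, up to 12.1, and its 6 E2F1 gene body peaks, up to 9.38 and the strongest of the list, all lay past the end of the canonical transcript within a longer annotated form, and 3 of the E2F1 peaks were in promoter windows of PRDM1. Of the 18 Fra-1 gene body peaks, 9 had an AP-1 motif within 50 bp of the summit (50%), against 53.9% in other genes, and 7 overlapped an E2F1 peak (38.9%), against 57.9%. As medians of the strongest peak, they reached 7.57 in the listed genes and 9.82 in the others, so these peaks were not stronger. With lists of equal size, 3 of the 37 genes (8.11%) had a Fra-1 gene body peak, against 7.2%.

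Other genes of the pathway, 80 that are not on the list, showed similar shares for E2F1. E2F1 had a promoter peak in 76 of the 80 (95%), Fra-1 in 18 (22.5%) and MYC in 9 (11.2%). Among protein-coding genes outside the list these shares were 61.2%, 13.2% and 17.8%, so the MYC share of the 80 genes was the lower one. The 4 without an E2F1 peak were CTSS and CTSK, cathepsins of immune cells and osteoclasts, RRAGD, a GTPase of nutrient sensing, and ULK2, a kinase related to ULK1. An E-box was near a TSS in 32 of the 80 (40.0%) and the CLEAR core in 6 (7.5%). These were lower shares than in the 37 listed genes, and the same motif shares in other protein-coding genes were 27.2% and 2.72%. In the 9 further vacuolar ATPase genes, unlike in the 7 listed ones, Fra-1 had promoter peaks in 3 (ATP6V0A1, ATP6V0A2 and ATP6V1D) and MYC in 2 (ATP6V0A1 and ATP6V1D).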

How the data were processed

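Per the paper's methods and the submitters' processing notes, reads were trimmed (Trimmomatic 0.27) and aligned to masked hg19 (Bowtie 0.12.5) by the authors, who kept uniquely mapping reads and called peaks per library with MACS2 2.0.10 (q-value cutoff of 0.01) against 1 shared input. No libraries were pooled. The deposited signal is the fragment pileup at the summit, scaled down to the smaller library (factors of 0.451 for MYC, 0.596 for E2F1, 0.832 for Fra-1). The deposited fold enrichment is a ratio that MACS2 computed from this pileup and the local background, and it need not equal their plain quotient. The authors also deposited −log10 p- and q-values. Scaled pileups are not counts of independent molecules. Their 95% Poisson intervals were computed on the scaled values, which are smaller than the fragment counts. They are therefore not the exact counting error, and they leave out every other source of error.

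Genes and start sites were those of GENCODE 44 mapped to GRCh37. For 279 genes without a canonical transcript the most upstream TSS was used, and none of these is listed. An overlap of at least 1 bp counted. A peak can count for several genes. The members and lists were chosen with earlier results of these data known. Genes described in full were the 3 transcription factors, those with promoter peaks of all 3 factors or of none, and those with the strongest peak of each factor. The remaining genes were named by role. Sequences of some listed genes are not reported here. Sequences shown were chosen after their values were seen, apart from those near MYC and Fra-1 summits of these genes.

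Assignments were tested on simulated data, with 600 of 600 planted peaks and 300 of 300 planted motifs recovered. The planted genes lay far apart with 1 TSS each, and the motifs were planted in sequence of A and T only. The check therefore covered the code and not crowded or G- and C-rich promoters. Alternatives were other windows, 1 canonical TSS, summits, −log10 q and fold enrichment minima of 5, lists of equal size and other motif windows. Leaving out shared peaks, leaving out the stretch of chromosome 6 and the alternatives for the CLEAR core were chosen after seeing the data. EZH2, the fourth TF and the deposited p-values were not used here. Calculations ran in Python 3.11.15 (matplotlib 3.10.9, pysam 0.24.0, scipy 1.17.1, pandas 2.3.3, numpy 2.4.6).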

Additional observations from a re-analysis of the deposited data

How the results depend on the processing

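Of 50 alternative values, 41 stayed within 1.5 times of the count reported. Some of these could not move. The MYC list itself has 4867 peaks, so lists of that size left its counts as they were. The stretch of chromosome 6 held no peak, so leaving it out could not change a count of listed genes. With 1 canonical TSS per gene, Fra-1 promoter peaks were counted in 6 genes (7.21% of other genes) and E-boxes in 15 (10.9%). With promoter windows included in the gene body, MYC peaks were counted in 5 genes (16.0% of others) and E2F1 peaks in 36 (63.1%). With every list limited to its 4867 peaks of largest −log10 q, promoter peaks were counted in 4 genes for Fra-1 (3.4% of others), 14 for E2F1 (25.7%) and 2 for all 3 factors (0.857%), and gene body peaks in 3 for Fra-1 (7.2%) and 0 for E2F1 (1.88%). The Fra-1 gene body share was thus 8.11% against 7.2% of others, and its excess was not seen among the strongest peaks. Without peaks that lie in a promoter window of another gene, E2F1 had promoter peaks in 28 genes (75.7% against 44.4%), MYC in 5 (13.5% against 10.7%, without BECN1 and HEXA) and Fra-1 in 10 (27% against 11.0%). At a −log10 q of at least 5, MYC had promoter peaks in 5 genes (13.5% against 12.7%). No paired analysis was possible because each factor had 1 library. With no replicates, no spread between cultures is known, and the shallow input limits the precision of every fold enrichment.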
